A study of Marchantia polymorpha and Arabidopsis thaliana and Oryza sativa Japonica Group with 116 samples.

Results

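The rice sodium and potassium transporters described here are 7 genes chosen by locus identifier, out of the 37852 genes of the rice count table. They are SOS1 (Os12g0641100), NHX1 (Os07g0666900), HKT1;1 (Os04g0607500), HKT1;4 (Os04g0607600), HKT1;5 (Os01g0307500), HKT2;1 (Os06g0701700) and AKT1 (Os01g0648000). All 7 were in the table and passed the filter on low counts. Their transcript levels were measured by RNA sequencing in whole seedlings aged 7 days, grown on plates of diluted MS medium with 16 h of light and 8 h of dark. The mutant xlg1,4 and the wild type, NB, were each harvested at 3 times, namely before salt (0 h), 2 h into a treatment with 100 mM NaCl, and 24 h into it. XLG genes encode extra-large α subunits of heterotrimeric G proteins, which relay signals from the plasma membrane. The sources used here give neither the alleles of xlg1,4 nor how many lines or plants stand behind a library. The study asked how G-protein mutants of several plants respond to salt, and rice supplied 18 of its 116 libraries.

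Sodium enters roots through transporters and channels that also serve potassium, and it harms leaves when it builds up there. Plants limit this by pumping sodium out of cells, by locking it in the vacuole and by pulling it back out of the xylem sap before it reaches the leaf blade. SOS1 is the plasma-membrane Na+/H+ antiporter that exports sodium, and NHX1 is the Na+/H+ antiporter that loads sodium and potassium into the vacuole. HKT1;1, HKT1;4 and HKT1;5 are sodium-selective transporters that retrieve sodium from vascular sap. HKT2;1 takes sodium up into potassium-starved roots, and AKT1 is the inward potassium channel of root cells.

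Of 17 rice libraries with counts, 14 were used: 2 of xlg1,4 at each time, 3 of NB at 0 h, 3 of NB at 2 h and 2 of NB at 24 h. The other 3 were left out by the rule that set these genes, because their labels are in doubt. By expression of all genes, NB 24 h replicate 3 lay nearest to xlg1,4 at 0 h, xlg1,4 0 h replicate 3 nearest to xlg1,4 at 2 h, and xlg1,4 2 h replicate 3 nearest to xlg1,4 at 24 h. Of the 14 libraries used, 13 lay nearest to their own group, and the exception, NB 24 h replicate 2, had correlations of 0.584 with xlg1,4 at 24 h and 0.564 with NB at 24 h. The 14 libraries held 15.1 to 21.4 M counts, so that 1 read was worth 0.0501 to 0.0642 CPM (counts per M counts of the library, after scaling). No rice library used here was sampled at 2 h or 24 h without salt, so salt, elapsed time, time of day and handling cannot be told apart. In whole seedlings, fewer cells that use a gene and less RNA per cell cannot be told apart either.

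Transporter transcripts differed between 24 h and the earlier times, and no transporter was called between the genotypes. In xlg1,4, HKT2;1, HKT1;1 and NHX1 transcripts were lower and SOS1 transcripts were higher at 24 h than at 0 h. In NB the same 3 genes were lower at 24 h than at 0 h, and SOS1 narrowly missed the threshold. By edgeR's quasi-likelihood test with Benjamini-Hochberg adjustment over 25517 genes, called at an adjusted p under 0.05, 1 member rose and 3 fell in xlg1,4 at 24 h against 0 h, where 26.6% of all genes were called, 13.6% higher and 13.1% lower. In NB, 3 members fell over the same interval, where 20.4% of genes were called and 10% were called lower. The median log2 fold change of the 7 members was -0.76 in xlg1,4, against -0.01 over all genes, and -0.61 in NB, against -0.02 over all genes. With 7 members this median is the value of 1 gene, NHX1 in both genotypes. With all 17 libraries entered under their labels, edgeR called 0 members in any comparison. Of 25482 genes it then called 0 in xlg1,4 and 5 in NB at 24 h against 0 h. At an unadjusted p under 0.05 it gave 3 members in xlg1,4 and 0 in NB over that interval. The number of all genes at that threshold was not counted for the 17 libraries. DESeq2 was run on the 14 libraries alone.

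**Figure D1:**
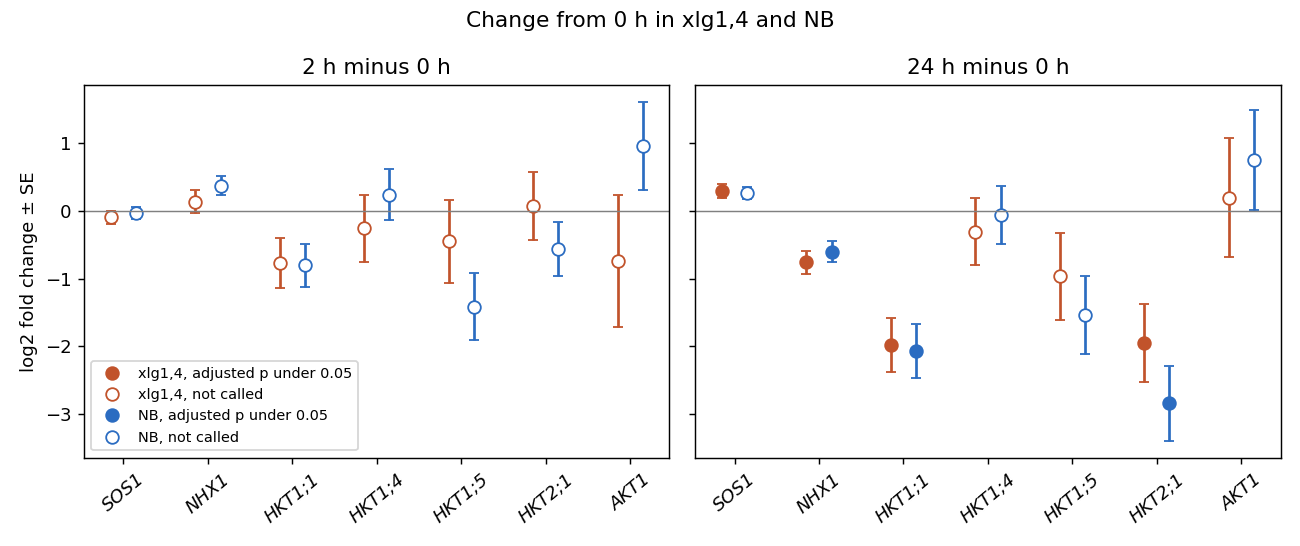
Change of each transporter from 0 h to 2 h (left) and to 24 h (right), as log2 fold change (y axis) with its standard error, in xlg1,4 and in NB; filled points have an adjusted p under 0.05. No point is filled at 2 h, and the filled points at 24 h lie below 0 for NHX1, HKT1;1 and HKT2;1 in both genotypes and above 0 for SOS1 in xlg1,4.

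Between 0 h and 2 h, 0 of the 7 members were called in xlg1,4, where 1.31% of all genes were called. In NB also 0 members were called at 2 h, where the background was 5.81%. At an unadjusted p under 0.05 edgeR gave 0 members in xlg1,4 and 3 in NB, beside 4067 and 5205 of all 25517 genes. DESeq2 called 0 members in both genotypes, beside 878 genes in xlg1,4 and 2056 in NB. Between 2 h and 24 h, 1 member rose and 3 fell in xlg1,4, where 20.5% of genes were called, 11% higher and 9.48% lower. In NB 1 rose and 2 fell over that interval, where 13.9% of genes were called, 7% higher and 6.87% lower.

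The libraries of a member often did not overlap between times, as was also common among all genes. In xlg1,4 the members without overlap numbered 2 at 2 h against 0 h, 5 at 24 h against 0 h and 5 at 24 h against 2 h, while the shares over all genes were 46.8%, 62.4% and 60.9%. In NB they numbered 2, 5 and 4 for the same pairs of times, and the shares over all genes were 25.4%, 49.5% and 43.5%. With so few libraries, lack of overlap was common in the whole table, and the comparisons rest on the tests.

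SOS1, the sodium exporter, was highest at 24 h in both genotypes. In xlg1,4 it had 156 and 137 CPM at 0 h, 139 and 137 CPM at 2 h, and 185 and 175 CPM at 24 h. In NB it had 152, 144 and 140 CPM at 0 h, 135, 144 and 149 CPM at 2 h, and 179 and 171 CPM at 24 h. All 4 libraries of 24 h lay above all 10 libraries of the earlier times, while 0 h and 2 h overlapped within each genotype. Ranked by mean, the groups were xlg1,4 at 24 h (180 CPM), NB at 24 h (175), xlg1,4 at 0 h (147), NB at 0 h (145), NB at 2 h (142) and xlg1,4 at 2 h (138), and the libraries of neighbours overlapped except between NB at 24 h and xlg1,4 at 0 h. In xlg1,4 the log2 fold change was 0.29 ± 0.10 (SE) for 24 h against 0 h (edgeR adjusted p = 0.0428) and 0.39 ± 0.10 for 24 h against 2 h (adjusted p = 0.0148). In NB it was 0.27 ± 0.09 for 24 h against 0 h (adjusted p = 0.0503, not called) and 0.30 ± 0.09 for 24 h against 2 h (adjusted p = 0.0433). The called rises were 1.23-fold to 1.31-fold and stood close to the threshold.

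Each SOS1 call was lost when some single library was left out, while the log2 fold change kept its sign. With 1 library left out it ran from 0.26 to 0.34 in NB at 24 h against 2 h. In xlg1,4 it ran from 0.20 to 0.41 at 24 h against 0 h and from 0.34 to 0.43 at 24 h against 2 h. The rise in NB at 24 h against 2 h lost its call when any 1 of the 5 libraries was left out, with adjusted p from 0.0527 to 0.19. In xlg1,4 the rise against 0 h was lost without 0 h replicate 2 (adjusted p = 0.249), 24 h replicate 1 (0.186) or 24 h replicate 2 (0.0831). The rise against 2 h in xlg1,4 was lost without 2 h replicate 1 (adjusted p = 0.0596), 2 h replicate 2 (0.0964) or 24 h replicate 1 (0.0995). Without a filter on low counts the NB rise against 2 h (adjusted p = 0.0779) and the xlg1,4 rise against 0 h (0.0724) were lost as well. Fitting only the compared groups ended all 3 calls, with adjusted p of 0.103 for the NB rise against 2 h, 0.15 for xlg1,4 against 0 h and 0.0509 for xlg1,4 against 2 h. With DESeq2 the NB change against 0 h was called (adjusted p = 0.0157), and it was called with DESeq2 size factors in edgeR too (0.0398).

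NHX1, the vacuolar antiporter, was lowest at 24 h in both genotypes. In xlg1,4 it had 45.8 and 67.1 CPM at 0 h, 59.7 and 64.8 CPM at 2 h, and 30.0 and 36.7 CPM at 24 h. In NB it had 51.0, 46.1 and 48.8 CPM at 0 h, 58.7, 59.7 and 71.3 CPM at 2 h, and 34.3 and 29.7 CPM at 24 h. The 24 h libraries of both genotypes lay below every earlier library. In NB the 2 h libraries also lay above those of 0 h, and in xlg1,4 the libraries of 0 h and 2 h overlapped. Ranked by mean, NHX1 ran from NB at 2 h (63.2 CPM) through xlg1,4 at 2 h (62.2), xlg1,4 at 0 h (56.4) and NB at 0 h (48.6) to xlg1,4 at 24 h (33.3) and NB at 24 h (32.0), with a gap between libraries of neighbours only above the 24 h groups.

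The fall of NHX1 at 24 h against 2 h was 1.87-fold in xlg1,4 (log2 fold change -0.90 ± 0.17 SE, edgeR adjusted p = 0.00213) and 1.98-fold in NB (-0.98 ± 0.16, adjusted p = 0.000897). Both calls stood when any 1 library was left out, with adjusted p of at most 0.0316 in xlg1,4 and 0.0168 in NB. Against 0 h the fall was 1.69-fold in xlg1,4 (-0.76 ± 0.17, adjusted p = 0.0046) and 1.52-fold in NB (-0.61 ± 0.16, adjusted p = 0.0137). That of xlg1,4 was lost without 0 h replicate 2 (log2 fold change -0.46, adjusted p = 0.0645) or without 24 h replicate 1 (adjusted p = 0.0512), and that of NB without 24 h replicate 2 (adjusted p = 0.122). At 2 h against 0 h the log2 fold change was 0.14 ± 0.16 in xlg1,4 (adjusted p = 0.719) and 0.38 ± 0.13 in NB (adjusted p = 0.124), and neither was called.

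**Figure D2:**
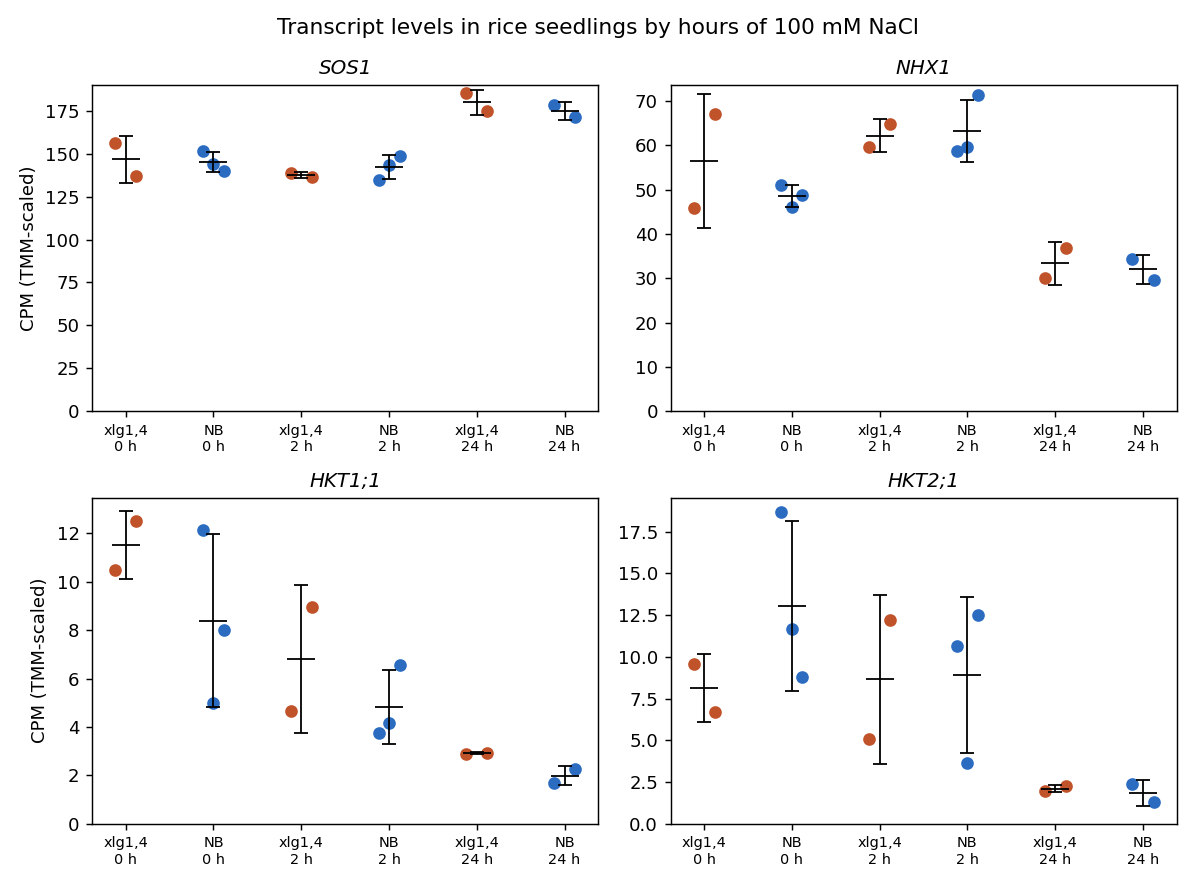
Transcript level (y axis, CPM scaled by TMM) of SOS1, NHX1, HKT1;1 and HKT2;1 in each library of xlg1,4 and NB at 0, 2 and 24 h of NaCl, with black bars for the mean ± SD of 2 or 3 libraries. The 24 h points of SOS1 stand above all earlier points, and those of NHX1, HKT1;1 and HKT2;1 stand below them.

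HKT1;1, a sodium-selective transporter that keeps sodium low in leaf blades, was lower at 24 h than at 0 h in both genotypes. The xlg1,4 libraries held 10.5 and 12.5 CPM at 0 h, 4.66 and 8.97 CPM at 2 h, and 2.88 and 2.94 CPM at 24 h. The NB libraries held 12.1, 5.0 and 8.03 CPM at 0 h, 3.74, 4.18 and 6.57 CPM at 2 h, and 1.70 and 2.26 CPM at 24 h. Each 24 h library lay below each earlier one, and the xlg1,4 libraries of 24 h also lay above those of NB at 24 h. The NB libraries of 0 h and 2 h overlapped. By group mean the order was xlg1,4 at 0 h (11.5 CPM), NB at 0 h (8.39), xlg1,4 at 2 h (6.81), NB at 2 h (4.83), xlg1,4 at 24 h (2.91) and NB at 24 h (1.98), where the first 4 groups overlapped one after the other and the 24 h groups stood apart.

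At 24 h against 0 h HKT1;1 fell 3.95-fold in xlg1,4 (log2 fold change -1.98 ± 0.40 SE, edgeR adjusted p = 0.00271) and 4.21-fold in NB (-2.07 ± 0.40, adjusted p = 0.00243). Both calls stood without any 1 library, with adjusted p of at most 0.0223 in xlg1,4 and 0.0373 in NB. Against 2 h the log2 fold change was -1.21 ± 0.41 in xlg1,4 (adjusted p = 0.0493) and -1.27 ± 0.40 in NB (adjusted p = 0.0501, not called). The first of these was lost without 2 h replicate 2 (log2 fold change -0.68, adjusted p = 0.389), 24 h replicate 1 (adjusted p = 0.172) or 24 h replicate 2 (adjusted p = 0.141). The second was called with DESeq2 (adjusted p = 0.0108), without a filter on low counts (0.024), with only the compared groups fitted (0.0404) and without NB 2 h replicate 1 (0.0497), while with all 17 libraries its log2 fold change was 0.27 (adjusted p = 0.894), in the opposite direction. At 2 h against 0 h the log2 fold change was -0.77 ± 0.37 in xlg1,4 (adjusted p = 0.332) and -0.80 ± 0.31 in NB (adjusted p = 0.159).

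HKT2;1, the root sodium uptake transporter, was lower at 24 h than at both earlier times in each genotype. Its level in xlg1,4 was 9.60 and 6.71 CPM at 0 h, 5.06 and 12.2 CPM at 2 h, and 1.94 and 2.25 CPM at 24 h. Its level in NB was 18.6, 11.7 and 8.80 CPM at 0 h, 10.6, 3.62 and 12.5 CPM at 2 h, and 2.37 and 1.29 CPM at 24 h. The 24 h libraries lay below all others, and the libraries of 0 h and 2 h overlapped in each genotype. NB at 2 h was wide, since replicate 2 was far below the other two. By group mean the order was NB at 0 h (13.0 CPM), NB at 2 h (8.92), xlg1,4 at 2 h (8.65), xlg1,4 at 0 h (8.15), xlg1,4 at 24 h (2.09) and NB at 24 h (1.83), with no overlap only between xlg1,4 at 0 h and xlg1,4 at 24 h.

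At 24 h against 0 h HKT2;1 fell 3.88-fold in xlg1,4 (log2 fold change -1.95 ± 0.58 SE, edgeR adjusted p = 0.0223) and 7.18-fold in NB (-2.84 ± 0.55, adjusted p = 0.00264). The NB fall stood without any 1 library (adjusted p of at most 0.04). The xlg1,4 fall was lost without 0 h replicate 1 (adjusted p = 0.127), 24 h replicate 1 (0.106) or 24 h replicate 2 (0.0856). Against 2 h it fell 4.07-fold in xlg1,4 (-2.03 ± 0.58, adjusted p = 0.0237) and 4.88-fold in NB (-2.29 ± 0.55, adjusted p = 0.0138). Those calls were lost in xlg1,4 without 2 h replicate 2 (log2 fold change -1.27, adjusted p = 0.239), 24 h replicate 1 (adjusted p = 0.124) or 24 h replicate 2 (adjusted p = 0.0829), and in NB without 24 h replicate 1 (adjusted p = 0.0522) or 24 h replicate 2 (adjusted p = 0.12).

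HKT1;5, which retrieves sodium from the root xylem, was read 7 to 65 times per library. In xlg1,4 it had 1.93 and 1.52 CPM at 0 h, 1.70 and 0.769 CPM at 2 h, and 1.38 and 0.403 CPM at 24 h. In NB it had 1.86, 2.42 and 4.17 CPM at 0 h, 0.579, 1.81 and 0.710 CPM at 2 h, and 0.670 and 1.24 CPM at 24 h. The NB libraries of 2 h and 24 h all lay below those of NB at 0 h. The log2 fold change in NB was -1.41 ± 0.49 (SE) at 2 h against 0 h (edgeR adjusted p = 0.114) and -1.53 ± 0.57 at 24 h against 0 h (adjusted p = 0.0739), neither of them called. The NB change at 24 h was called with DESeq2 (adjusted p = 0.0473), without a filter on low counts (0.0499) and with only the compared groups fitted (0.0439). In xlg1,4 the log2 fold change at 24 h against 0 h was -0.97 ± 0.64 (adjusted p = 0.289), and its libraries did not overlap. With 1 library left out, that value was lowest without 24 h replicate 1, at -2.08, and highest without 24 h replicate 2, at -0.33. The NB change at 2 h was -2.10 without 2 h replicate 2 and -1.03 without 0 h replicate 3, and that at 24 h was -2.05 without 24 h replicate 2 and -1.15 without 0 h replicate 3.

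HKT1;4, which unloads sodium from the xylem in leaf sheaths and stems, was read 8 to 30 times per library and was called in no comparison. Levels in xlg1,4 were 0.858 and 0.711 CPM at 0 h, 0.501 and 0.833 CPM at 2 h, and 0.813 and 0.461 CPM at 24 h. Levels in NB were 0.799, 0.861 and 1.09 CPM at 0 h, 1.00, 1.51 and 0.710 CPM at 2 h, and 0.670 and 1.08 CPM at 24 h. The groups overlapped throughout. Its log2 fold change at 24 h against 0 h was -0.31 in xlg1,4 (95% interval -1.37 to 0.76) and -0.05 in NB (-0.98 to 0.87), so that a change as large as that of HKT1;1 lies outside both intervals.

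AKT1, the root potassium channel, was read 1 to 19 times per library and was called in no comparison. In xlg1,4 it had 6 and 5 reads at 0 h, 3 and 3 reads at 2 h, and 7 and 4 reads at 24 h. In NB it had 9, 6 and 1 reads at 0 h, 5, 19 and 9 reads at 2 h, and 3 and 15 reads at 24 h. Only NB 2 h replicate 2 and NB 24 h replicate 2 held 10 or more reads. AKT1 thus passed the filter on low counts through NB libraries alone. In NB the groups overlapped at all times, and in xlg1,4 the 2 h libraries lay below the others. The log2 fold change at 24 h against 0 h had a 95% interval from -1.68 to 2.08 in xlg1,4 and from -0.83 to 2.33 in NB, so that a 2-fold rise lies inside both intervals.

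**Figure D3:**
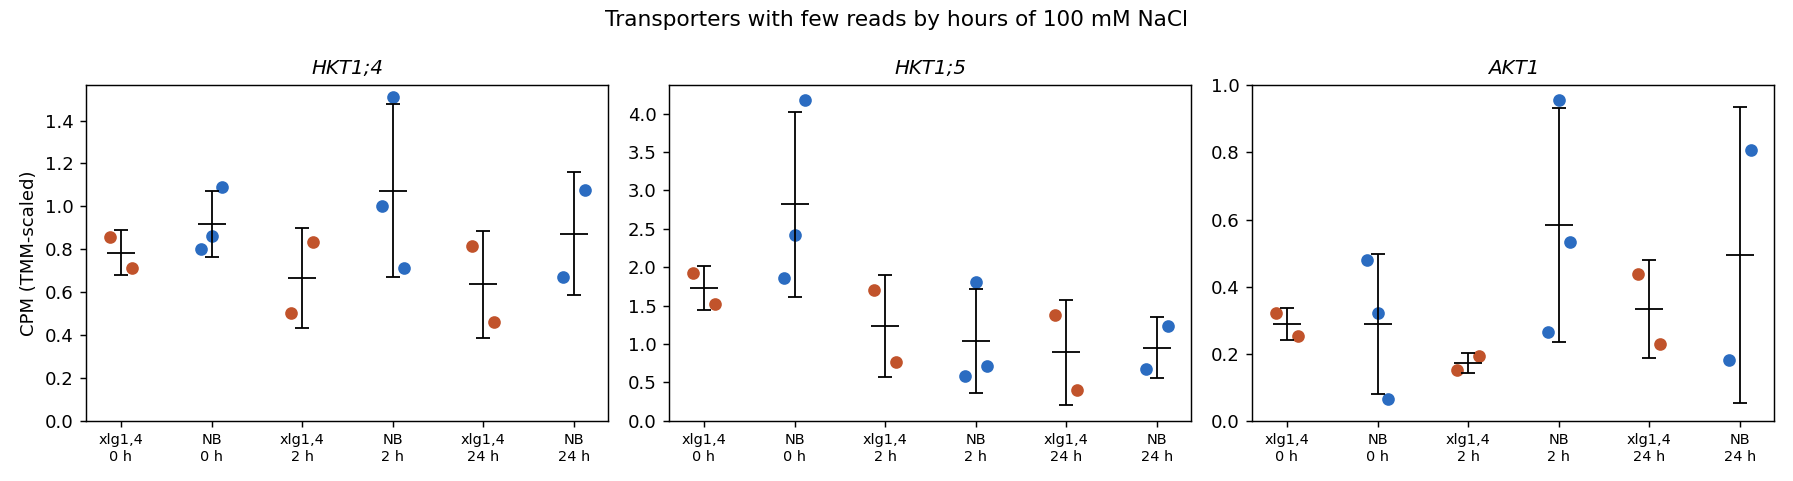
Transcript level (y axis, CPM scaled by TMM) of HKT1;4, HKT1;5 and AKT1 in each library of xlg1,4 and NB at 0, 2 and 24 h of NaCl, with black bars for the mean ± SD of 2 or 3 libraries. The groups of HKT1;4 overlap, and HKT1;5 was highest in NB at 0 h, at 1.86 to 4.17 CPM.

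Between xlg1,4 and NB, 0 of 7 members were called at 0 h, 2 h or 24 h, where 2.67%, 2.99% and 0.235% of all genes were called in the same order of times. At an unadjusted p under 0.05 edgeR gave 0 members at each time, beside 5099, 4907 and 1956 of all genes in that order. DESeq2 called 0 members at each time, beside 1436, 1446 and 162 genes. At 0 h SOS1 averaged 147 ± 13.6 CPM in xlg1,4 and 145 ± 5.86 CPM in NB (SD, n = 2 and 3), with a log2 fold change of 0.02 and a 95% interval from -0.18 to 0.21. HKT1;1 had log2 fold changes of 0.45 at 0 h, 0.49 at 2 h and 0.54 at 24 h in xlg1,4 against NB, with 95% intervals of -0.25 to 1.16, -0.26 to 1.24 and -0.42 to 1.51. All 3 intervals included 0. The direction was not the same under every setting. Without xlg1,4 2 h replicate 2 the 2 h estimate was -0.046. With 1 of the 14 libraries left out, the estimates ran from 0.19 to 0.83 at 0 h and from 0.37 to 0.77 at 24 h. With all 17 libraries, the doubtfully labelled NB 24 h replicate 3 among them, the 24 h estimate was -0.99. At 0 h the libraries of 0 members stood apart between the genotypes, against 38.1% of all genes. At 24 h HKT1;1 was the 1 member whose libraries did not overlap between the genotypes, as was so for 34.9% of all genes. At 2 h AKT1 was the 1 such member, against 37.5% of all genes, with a log2 fold change of -1.76 (95% interval -3.53 to 0.01). AKT1 had few reads and passed the filter on low counts through NB libraries, NB 2 h replicate 2 among them. No difference between the genotypes is read from its value at 2 h.

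No difference between the genotypes in the change from 0 h was called either. The difference of the 24 h changes, xlg1,4 minus NB, had 0 members called by edgeR and 0 at an unadjusted p under 0.05. Its estimate was 0.03 on the log2 scale for SOS1 (95% interval -0.26 to 0.32), -0.15 for NHX1 (-0.64 to 0.33), 0.09 for HKT1;1 (-1.10 to 1.28) and 0.89 for HKT2;1 (-0.83 to 2.61). For SOS1 and NHX1 the intervals leave room for a difference of less than 1 on the log2 scale, while those of HKT1;1 and HKT2;1 also hold differences above 1. The difference of the 2 h changes likewise had 0 members called and 0 at an unadjusted p under 0.05. Over all genes edgeR called 0 in either difference (percent called 0), DESeq2 called 4 at 2 h and 2 at 24 h, and at an unadjusted p under 0.05 edgeR gave 2093 at 2 h and 1579 at 24 h.

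A further 12 loci were listed by identifier, as transporters of sodium and potassium or as regulators of them. Os06g0606000 and Os05g0534400 were listed as regulators, not as transporters. In xlg1,4, edgeR called 0 at 2 h against 0 h, where 1.31% of all genes were called. At an unadjusted p under 0.05 it gave 6 there, beside 4067 of all genes. At 24 h in xlg1,4, 2 rose and 1 fell against 0 h and 1 fell against 2 h. The shares of all genes called were 26.6% and 20.5%. In NB, 1 rose at 2 h against 0 h, 1 rose and 1 fell at 24 h against 0 h, and 2 rose and 3 fell at 24 h against 2 h, where the shares over all genes were 5.81%, 20.4% and 13.9%. Os06g0606000 was called higher at 24 h against 0 h in both genotypes, with a log2 fold change of 0.52 ± 0.12 (SE) in xlg1,4 (edgeR adjusted p = 0.0073) and 0.53 ± 0.11 in NB (adjusted p = 0.00433). Os09g0286400 was called lower at 24 h against 2 h in both, by -0.43 ± 0.11 in xlg1,4 (adjusted p = 0.0157) and -0.37 ± 0.10 in NB (adjusted p = 0.0307). The list's median log2 fold change at 24 h against 0 h was -0.08 in xlg1,4, against -0.01 over all genes, and 0.13 in NB, against -0.02 over all genes. Between xlg1,4 and NB edgeR called 0 of the 12 loci at 0 h, 2 h or 24 h, where 2.67%, 2.99% and 0.235% of all genes were called. At an unadjusted p under 0.05 it gave 0 at 0 h, 1 at 2 h and 2 at 24 h, beside 5099, 4907 and 1956 of all genes. The sources used here do not pair these identifiers with names.

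Some loci listed as markers of root and shoot were called between times. The summed level of 8 root loci, 7 of which were tested and 1 of which had no counts in the 14 libraries, was 272 to 278 CPM at 0 h, 126 to 147 CPM at 2 h and 182 to 324 CPM at 24 h in xlg1,4. In NB it was 206 to 445 CPM at 0 h, 159 to 269 CPM at 2 h and 311 to 342 CPM at 24 h. By mean the sum was lowest at 2 h in both genotypes, though the NB sums of 0 h and 2 h overlapped. The root loci did not move together. In NB, Os02g0745100 averaged 111 CPM at 0 h and 37.8 CPM at 2 h, and Os03g0107300 averaged 157 and 91.6 CPM. Means of Os03g0667500, Os02g0595900 and Os07g0232900 in NB were no lower at 2 h than at 0 h. In xlg1,4 this held for Os03g0667500 and Os02g0595900, and the other tested root loci averaged less at 2 h. The median log2 fold change of the tested root loci at 2 h against 0 h was -0.55 in xlg1,4 and -0.18 in NB. Over all genes it was 0.0009 and 0.0008. The 7 shoot loci summed to 24408 to 30195 CPM at 0 h, 24485 to 25154 CPM at 2 h and 16945 to 20037 CPM at 24 h in xlg1,4, and to 25007 to 30634, 27682 to 37128 and 12252 to 19365 CPM in NB. At 24 h against 0 h, 3 shoot loci fell in xlg1,4 and 2 fell in NB. Of all genes, 26.6% and 20.4% were called in either direction, and 13.1% and 10% were called lower. Of the tested root loci, 1 fell in xlg1,4 over that interval. In NB edgeR called 0 of them, with 0 at an unadjusted p under 0.05, beside 8577 of all genes. At 2 h against 0 h, 1 root locus fell in each genotype and edgeR called 0 shoot loci in either. The shares of all genes called were 1.31% in xlg1,4 and 5.81% in NB. At an unadjusted p under 0.05 edgeR gave 2 shoot loci in xlg1,4 and 1 in NB, beside 4067 and 5205 of all genes.

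The shoot sum was lowest at 24 h, as were NHX1, HKT1;1 and HKT2;1, and the shoot loci differed in how far they changed. The fall at 24 h against 0 h was largest in Os09g0346500 and Os01g0600900. Os09g0346500 averaged 167 CPM at 24 h and 5472 CPM at 0 h in xlg1,4, and 110 CPM at 24 h and 5421 CPM at 0 h in NB. Os01g0600900 averaged 716 CPM at 24 h and 5396 CPM at 0 h in xlg1,4, and 566 CPM at 24 h and 5480 CPM at 0 h in NB. The other 5 shoot loci changed less between these times. Of these, Os11g0707000 averaged 12976 CPM at 24 h and 10372 CPM at 0 h in xlg1,4, and 10842 CPM at 24 h and 10854 CPM at 0 h in NB. Os12g0274700, Os12g0291100, Os12g0292400 and Os01g0501800 averaged less at 24 h than at 0 h in both genotypes. Os12g0291100 was called lower in xlg1,4 (log2 fold change -0.58 ± 0.19 SE, edgeR adjusted p = 0.0383) and not in NB (-0.33 ± 0.18, adjusted p = 0.214). The part of root and shoot RNA in the transporter results was not tested.

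For some transporters, the 3 libraries left out carried levels unlike those of their labelled groups. On the scale of all 17 libraries, xlg1,4 2 h replicate 3 had 32.5 CPM of NHX1, against 59.8 and 64.9 CPM in the other libraries of xlg1,4 at 2 h, and 172 CPM of SOS1, against 139 and 137 CPM. NB 24 h replicate 3 had 52.1 CPM of NHX1, against 34.4 and 29.7 CPM in the other NB libraries of 24 h, and 15.4 CPM of HKT2;1, against 2.38 and 1.29 CPM. It also had 13.5 CPM of HKT1;1, against 1.71 and 2.27 CPM. In xlg1,4 0 h replicate 3 HKT1;1 was at 4.13 CPM, below the 10.5 and 12.5 CPM of the other xlg1,4 libraries of 0 h. NHX1 in that library was at 60.6 CPM, between the 45.9 and 67.3 CPM of the same other libraries. With all 17 entered under their labels, the fall of HKT2;1 at 24 h against 0 h was -1.76 ± 0.91 (SE) on the log2 scale in xlg1,4 (edgeR adjusted p = 0.214) and -1.05 ± 0.72 in NB (adjusted p = 0.501). That of HKT1;1 was -1.64 ± 0.77 in xlg1,4 (adjusted p = 0.174) and -0.53 ± 0.64 in NB (adjusted p = 0.718). That of NHX1 was -0.79 ± 0.27 in xlg1,4 (adjusted p = 0.0842) and -0.33 ± 0.24 in NB (adjusted p = 0.519). SOS1 in xlg1,4 was 0.35 ± 0.12 (adjusted p = 0.093). The directions of these 7 changes stood.

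For 24 h against 2 h with all 17 libraries, the log2 fold change of SOS1 was 0.27 ± 0.12 (SE) in xlg1,4 (edgeR adjusted p = 0.348) and 0.22 ± 0.11 in NB (adjusted p = 0.389). That of NHX1 was -0.65 ± 0.27 in xlg1,4 (adjusted p = 0.335) and -0.71 ± 0.24 in NB (adjusted p = 0.223). HKT2;1 stood at -1.63 ± 0.91 in xlg1,4 (adjusted p = 0.403) and -0.50 ± 0.72 in NB (adjusted p = 0.805), and HKT1;1 at -0.89 ± 0.77 in xlg1,4 (adjusted p = 0.575) and 0.27 ± 0.65 in NB (adjusted p = 0.894). All calls of a member at 24 h were thus obtained with the 3 libraries left out, and none with them in. The whole table moved likewise. At 24 h against 2 h edgeR called 0 genes in either genotype with all 17 libraries. With the 14 libraries it called 5231 in xlg1,4 and 3540 in NB.

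**Figure D4:**
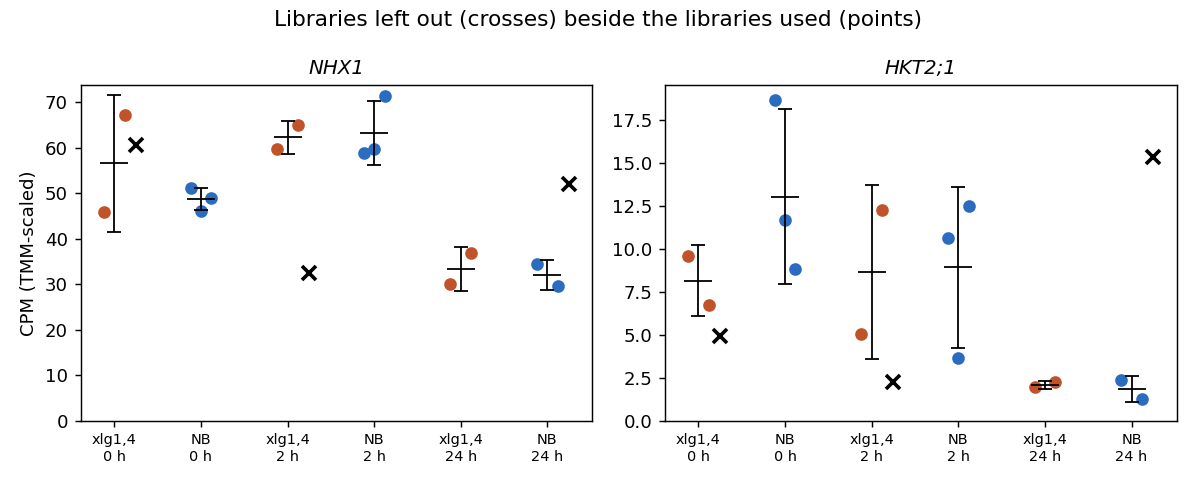
Transcript level (y axis, CPM scaled by TMM over all 17 libraries) of NHX1 and HKT2;1 in the libraries used (points, with mean ± SD) and in the 3 libraries left out (crosses), by labelled group. The cross of xlg1,4 at 2 h lies at the level of the 24 h points, and that of NB at 24 h lies among the points of 0 h and 2 h.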

How the data were processed

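RNA was extracted with an RNeasy kit and sequenced on standard Illumina libraries, per the labels' protocols. The rice table holds raw counts per gene as the authors deposited them. The submitters' processing notes name STAR and IRGSP-1.0, with no version, and nothing in the sources used here states the counting step, its strand setting or its treatment of reads matching several genes. HKT genes are related in sequence, so reads could be shared between them. Of 18 labelled libraries, 1 column (xlg1,4 24 h replicate 3) was empty, and 3 were left out as doubtfully labelled.

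Counts of 14 libraries were fitted with edgeR 4.0.16 in R 4.3.3 (filterByExpr with minimum count 10 and minimum total 15, TMM scaling, 1 mean per group, quasi-likelihood F-test, Benjamini-Hochberg adjustment over 25517 genes). SE is the absolute log2 fold change over the square root of F, and no level was compared between genes because no lengths were used. The design gives 11 comparisons. Alternatives were DESeq2 1.42.0, DESeq2 size factors, no filter, a replicate block, only the compared groups, all 17 libraries and each library left out. The script was tested on simulated data. The design text speaks of 2 to 3 biological replicates without saying what a replicate is, so the p-values here cover spread among libraries that may be technical.

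The text names all 7 members in every comparison and at most 4 called loci of a list. Members and lists were chosen with earlier results of these data known. The names of the members are those of the rule, and the 12 transport, 8 root and 7 shoot loci were listed by identifier, since no rice annotation was used here. Sequences, positions and genes of like pattern are therefore not given. The genes disrupted in xlg1,4 were not checked.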

Additional observations from a re-analysis of the deposited data

How the results depend on the processing

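Of 877 values of the 7 members under an alternative, 739 kept direction and side of the threshold, 9 passed it newly, 47 no longer passed it and 82 changed sign, and all 82 were uncalled on either side. The limits are the 2 libraries in 4 of the 6 groups, the low counts of HKT1;4, HKT1;5 and AKT1, and the 3 doubtful labels. Where the cause of a change is not plain from fewer libraries or fewer genes tested, it was not tested.

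With all 17 libraries under their labels, 0 members were called in every comparison, against 4 for xlg1,4 at 24 h against 0 h, 4 for xlg1,4 at 24 h against 2 h, 3 for NB at 24 h against 0 h and 3 for NB at 24 h against 2 h in the 14 libraries. Genes called then numbered 24 (against 1482) for NB at 2 h against 0 h, 5 (5214) for NB at 24 h against 0 h, 18 (681) for xlg1,4 against NB at 0 h, 36 (764) at 2 h, and 0 in the other comparisons. Uncalled log2 fold changes that changed sign with all 17 were, in NB, 0.056 for HKT1;4 at 24 h against 0 h, and 0.27 for HKT1;1 and 0.35 for HKT1;5 at 24 h against 2 h. In xlg1,4 they were 0.073 for SOS1, -0.14 for NHX1 and -0.12 for HKT2;1 at 2 h against 0 h, -0.049 for AKT1 at 24 h against 0 h, and 0.082 for HKT1;4 at 24 h against 2 h. For xlg1,4 against NB they were -0.036 for SOS1 and 0.20 for AKT1 at 0 h, 0.066 for SOS1 at 2 h, and -0.21 for NHX1, -0.99 for HKT1;1 and -1.58 for HKT2;1 at 24 h. For the difference of changes they were 0.10 for SOS1 at 2 h, and -1.11 for HKT1;1 and -0.71 for HKT2;1 at 24 h.

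DESeq2 called 5 members in NB at 24 h against 0 h, against 3 with edgeR, beside 5478 and 5214 of all genes. It called 878 genes in xlg1,4 at 2 h against 0 h (335 with edgeR), 1436 for xlg1,4 against NB at 0 h (681), 1446 at 2 h (764) and 162 at 24 h (60), and 4 and 2 genes (0 and 0) for the differences of the 2 h and 24 h changes. Without a filter on low counts, 594 genes were called in xlg1,4 at 2 h against 0 h, 95 for xlg1,4 against NB at 24 h and 2 for the difference of the 2 h changes. With only the compared groups fitted, 33 genes were called for xlg1,4 against NB at 24 h. DESeq2 size factors added 1 member call, SOS1 in NB at 24 h against 0 h, where 5196 genes were called (5214 with TMM).

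Replicate numbers showed no steady pairing of the libraries: deviations of 31 same-numbered pairs correlated from -0.227 to 0.232, with 4 over 0.1. Between groups of 2 libraries, replicates 1 and 2 give the same correlation by construction, so the 31 pairs are not all separate values. A pairing is not excluded by them. With the replicate number as a block, members called numbered 3 in xlg1,4 at 24 h against 0 h, 3 at 24 h against 2 h, 3 in NB at 24 h against 0 h and 2 at 24 h against 2 h. Genes called with the block numbered 6305, 4797, 3929 and 2722 in the same order, against 6797, 5231, 5214 and 3540 without it. The calls lost were SOS1 in NB against 2 h (adjusted p = 0.0824 by edgeR), SOS1 in xlg1,4 against 0 h (0.0596) and HKT1;1 in xlg1,4 against 2 h (0.0703). For xlg1,4 against NB at 2 h the block gave 0.027 for NHX1 and 0.089 for HKT2;1, both uncalled and of changed sign.

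With 1 library left out, a group of 1 was given the spread shared by the rest. Members called then ranged from 1 to 3 in xlg1,4 at 24 h against 0 h, from 1 to 3 in xlg1,4 at 24 h against 2 h, and from 1 to 3 in NB at 24 h against 2 h. Genes called ranged from 0 to 229 in xlg1,4 at 2 h against 0 h, 3628 to 5246 at 24 h against 0 h and 2182 to 3865 at 24 h against 2 h. In NB they ranged from 486 to 1196, 2585 to 4291 and 1549 to 3002 for the same pairs of times. For xlg1,4 against NB they ranged from 70 to 775 at 0 h, 61 to 851 at 2 h and 36 to 78 at 24 h, and for the differences of changes from 0 to 11 at 2 h and 0 to 1 at 24 h. The following uncalled log2 fold changes spanned 0. In xlg1,4 at 2 h against 0 h they ran from -0.18 to 0.021 for SOS1, -0.093 to 0.44 for NHX1, -0.64 to 0.087 for HKT1;4 and -0.69 to 0.59 for HKT2;1. At 24 h against 0 h in xlg1,4 they ran from -0.76 to 0.052 for HKT1;4 and -0.31 to 0.60 for AKT1, and at 24 h against 2 h from -0.50 to 0.33 for HKT1;4 and -1.63 to 0.19 for HKT1;5. In NB at 2 h against 0 h they ran from -0.054 to 0.0094 for SOS1 and -0.078 to 0.47 for HKT1;4, and at 24 h against 0 h from -0.44 to 0.26 for HKT1;4 and -0.69 to 1.44 for AKT1. At 24 h against 2 h in NB they ran from -0.69 to 0.045 for HKT1;4, -0.64 to 0.59 for HKT1;5 and -1.65 to 0.47 for AKT1. For xlg1,4 against NB at 0 h they ran from -0.072 to 0.11 for SOS1, -0.087 to 0.47 for NHX1 and -0.47 to 0.49 for AKT1. At 2 h between the genotypes they ran from -0.083 to 0.078 for NHX1, -0.046 to 0.90 for HKT1;1, -0.44 to 0.97 for HKT1;5 and -0.81 to 0.46 for HKT2;1. At 24 h between the genotypes they ran from -0.00027 to 0.084 for SOS1, -0.094 to 0.20 for NHX1, -1.24 to 0.51 for HKT1;5, -0.18 to 0.70 for HKT2;1 and -1.26 to 0.84 for AKT1. The difference of the 2 h changes ran from -0.16 to 0.029 for SOS1, -0.49 to 0.064 for NHX1, -0.50 to 0.44 for HKT1;1 and -0.13 to 1.14 for HKT2;1. That of the 24 h changes ran from -0.066 to 0.11 for SOS1, -0.42 to 0.15 for NHX1, -0.28 to 0.36 for HKT1;1, -0.70 to 0.14 for HKT1;4, -0.55 to 1.21 for HKT1;5 and -1.21 to 0.89 for AKT1.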
